A study of Homo sapiens with 15 samples.

Results

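Intron retention was described in unmodified HCT116, a human colorectal carcinoma cell line grown in culture, here called wild type (WT). The 3 WT libraries, of 15 in the series, were made from polyadenylated RNA with a directional kit and come, per the labels, from 3 independent experiments. The series was built to set 4 HCT116 clones deficient in the small nucleolar RNA bktRNA1 against this parental line, and no clone value is used below. The introns were the union of 4 deposited tables, 1 for each clone against WT, matched on chromosome, start, end and strand. All 111143 introns of the union carry WT counts, and these were identical wherever an intron was listed in several tables. The clones still shaped the list, because an intron entered a table partly through the clone's reads: 83066 introns were listed in all 4 tables and 9087 in only 1. The cells expressed epithelial genes, with 8 of 12 colon epithelial markers listed (among them EPCAM, CDH1, KRT8 and KRT18) and 0 of 6 leukocyte markers. VIL1, CLDN3, CEACAM5 and LGALS4 of the epithelial list had no listed intron. The 8 epithelial markers together had 123976 to 155686 spliced reads per library. The highest spliced count of an intron ranged from 39 to 12633 among these genes and was 216 in SYT1. COL1A1 for fibroblasts (1084 to 1544 reads), SERPINA1 for hepatocytes (19 to 30) and SYT1 for neurons (1366 to 1569) were each the single marker listed of their list.

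Splicing removes introns from the primary transcript through recognition of a donor site at the 5′ end, a branch site, and an acceptor site at the 3′ end. Most introns are removed by the major, U2-dependent spliceosome, and a small class by the minor, U12-dependent one. An intron left in a polyadenylated transcript can hold the RNA in the nucleus, introduce a premature stop codon that exposes the RNA to nonsense-mediated decay, or mark a pool of RNA whose splicing is completed later. Short introns in GC-rich genes are known in mammals as the class most often retained.

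The retention level was the share of transcripts that keep the intron, in percent, computed from reads over its exon-intron boundaries and reads across the spliced junction after each was divided by its effective length. Every listed intron had at least 20 junction reads in every WT library. Libraries are numbered 1, 2 and 3 in the order in which the tables list them, which carries no replicate name. The level of an intron is its mean over the 3 libraries unless a library is named. An intron with an annotated exon inside it, on either strand, can collect boundary reads that belong to that exon. Exons of transcripts annotated as retaining an intron were not counted as exons inside. An intron that overlaps another annotated intron can be the rare form of a pair. Most of what follows therefore uses simple introns, which have no annotated exon inside and are the only annotated intron over their span. This class was chosen after the values were seen. It holds 47294 introns (42.6%) in 8296 genes. A transcript annotated as retaining the intron existed for 2463 of these introns.

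The contrast between retained and removed introns could be read in the intron sequences themselves. The first group shows the 6 most retained simple introns of protein-coding genes that are at most 130 nt long, lie within an annotated transcript from which their sequence could be read, and have at least 100 reads per library on average with at least 10 spliced reads in each. The second group shows 5 of the 6 least retained introns of the same kind with at least 1000 reads. All are human reference sequence (hg38, GENCODE release 29 transcripts), 5′ to 3′ on the strand of the gene. The first 6 bases (the donor site) and the last 2 (the acceptor) are in capitals.
TAF1C intron 10, chr16:84181464-84181591, minus strand: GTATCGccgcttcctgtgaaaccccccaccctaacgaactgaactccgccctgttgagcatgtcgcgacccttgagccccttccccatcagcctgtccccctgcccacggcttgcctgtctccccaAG
FANCL intron 10, chr2:58162948-58163028, minus strand: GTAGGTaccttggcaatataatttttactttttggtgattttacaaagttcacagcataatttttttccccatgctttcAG
PAXX intron 3, chr9:136992975-136993052, plus strand: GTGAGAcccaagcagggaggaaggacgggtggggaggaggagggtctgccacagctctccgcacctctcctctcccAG
SPSB3 intron 3, chr16:1778322-1778434, minus strand: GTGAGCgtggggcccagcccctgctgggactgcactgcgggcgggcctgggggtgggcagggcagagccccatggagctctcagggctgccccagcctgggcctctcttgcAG
ANO9 intron 18, chr11:420616-420717, minus strand: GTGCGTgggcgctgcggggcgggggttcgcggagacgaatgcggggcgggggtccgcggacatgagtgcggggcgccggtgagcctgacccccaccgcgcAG
TRABD intron 8, chr22:50197996-50198074, plus strand: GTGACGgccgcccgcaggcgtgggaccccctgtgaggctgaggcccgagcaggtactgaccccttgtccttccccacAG
HSP90AA1 intron 6, chr14:102084565-102084680, minus strand: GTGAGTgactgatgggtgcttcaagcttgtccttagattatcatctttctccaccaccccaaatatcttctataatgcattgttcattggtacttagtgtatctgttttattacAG
EIF4H intron 3, chr7:74189738-74189821, plus strand: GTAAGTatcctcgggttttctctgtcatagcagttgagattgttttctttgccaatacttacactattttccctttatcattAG
NPM1 intron 6, chr5:171392817-171392913, plus strand: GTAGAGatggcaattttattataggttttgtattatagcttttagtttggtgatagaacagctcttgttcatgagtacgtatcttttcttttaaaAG
ATP5F1A intron 10, chr18:46086258-46086386, minus strand: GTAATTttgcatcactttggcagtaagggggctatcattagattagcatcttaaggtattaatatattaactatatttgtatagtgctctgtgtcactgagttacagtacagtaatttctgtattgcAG
EEF1A1 intron 3, chr6:73519229-73519336, minus strand: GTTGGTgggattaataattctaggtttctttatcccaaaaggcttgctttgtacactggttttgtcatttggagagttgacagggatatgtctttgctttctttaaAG

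The retained introns printed above were mostly rich in G and C and the removed ones in A and T. The intron of TAF1C, a subunit of the RNA polymerase I initiation factor SL1, was retained at 69.2, 66.5 and 69.6% in libraries 1 to 3 and had 63.3% GC. The intron of PAXX, a factor of DNA end joining, was retained at 59.9, 61.2 and 63.2% and had 66.7% GC. TRABD intron 8 was retained at 46.8, 42.2 and 51.7%, with 70.9% GC. FANCL, a ubiquitin ligase of the Fanconi anaemia pathway, was the exception: its intron was retained at 72.0, 55.9 and 76.7% although it had 32.1% GC. The 5 removed introns had 29.9 to 37.9% GC, and their levels were 0.00456% in HSP90AA1 (a chaperone), 0.0106% in EIF4H (a translation factor), 0.0119% in NPM1 (nucleophosmin), 0.0235% in ATP5F1A (an ATP synthase subunit) and 0.0579% in EEF1A1 (an elongation factor). All 11 begin with GT and end with AG. EEF1A1, NPM1 and HSP90AA1 have processed copies elsewhere in the genome, so spliced reads of these genes may be shared with the copies. The introns were chosen for their levels, so this is a description of their sequence and no test was made.

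Retention in WT cells was rare in simple introns and more frequent where the annotation places an exon inside the intron. The median level of all listed introns was 1.09%, with library medians of 1.08, 0.836 and 1.27%. The median was 0.585% over 68744 introns with no annotated exon inside, and 0.469% over simple introns, with library medians of 0.344, 0.234 and 0.491%. A library's median is often lower than the median of mean levels, because many introns have no retained read in 1 library but some in another. Levels of at least 50% were reached by 14115 of all listed introns (12.7%), by 1441 of those with no annotated exon inside (2.1%) and by 197 simple introns (0.417%). Levels of at least 10% were reached by 20.9%, 7.32% and 4.08% of the same classes. Of the 42003 introns with an annotated exon inside, 29.4% were at or above 50%, 42.5% at or above 10% and 28.8% under 1%, and the median was 5.01%. Between these stood the 21450 introns without an exon inside that overlap another annotated intron, with a median of 1.02%, 5.8% at or above 50%, 14.5% at or above 10% and 49.6% under 1%. At the low end, 53837 of all listed introns (48.4%), 60.7% of those with no annotated exon inside and 31098 simple introns (65.8%) were under 1%. No retained read in any library was found for 9430 simple introns (19.9%), and no spliced read for 15. The share of introns at or above 50% hardly moved between libraries, at 12.7, 12.5 and 12.9% over all listed introns, whereas the share under 1% was 48.9, 52.7 and 46.1%. Listing went with level: simple introns listed in all 4 tables had a median of 0.653%, and those listed in 1 or 2 tables a median of 0%.

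**Figure D1:**
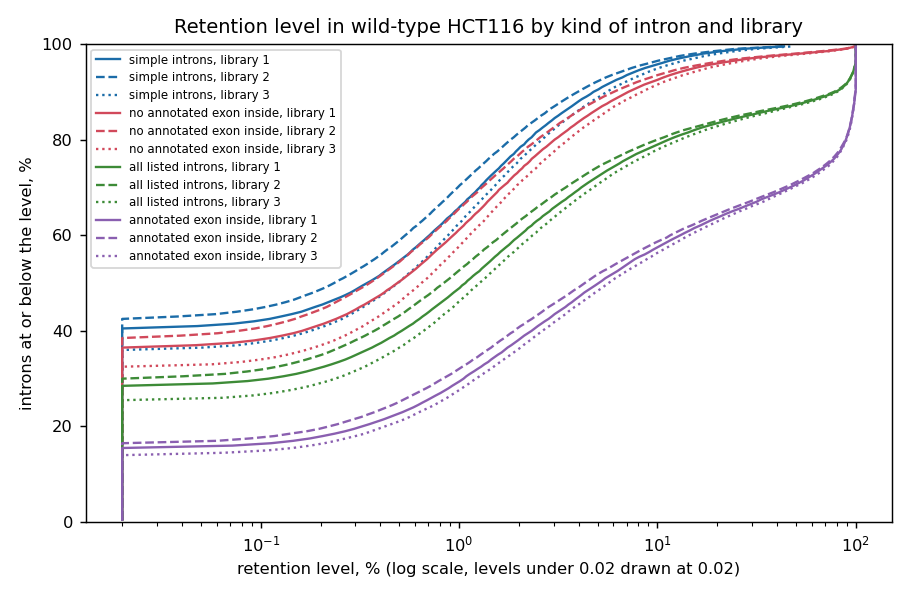
Cumulative share of introns (y axis, %) at or below each retention level (x axis, %, log scale) in the 3 WT libraries, for simple introns, introns with no annotated exon inside, all listed introns and introns with an annotated exon inside. Simple introns lie furthest to the left with a median of 0.469%, introns with an exon inside furthest to the right with a median of 5.01%, and library 2, with the lowest levels, has the highest curve at low levels in each class.

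A small number of simple introns were kept in most transcripts of well-measured genes. Among the 27007 simple introns with at least 100 reads per library on average, 713 reached 10% (2.64%), 48 reached 50% (0.178%) and 71.8% stayed under 1%. Those with the highest levels of all had almost no spliced reads. RPE65 intron 1 had 371, 384 and 294 retained reads and no spliced read, and no listed intron of that gene had a spliced read. C19orf71 and DENND1C stood at 99.7% each, and no listed intron of either gene averaged more than 1 spliced read per library. For these genes hardly any spliced transcript was measured against which the boundary reads could be set. The 34 introns at or above 50% that also had at least 10 spliced reads in each library, a limit added after the values were seen, came from 32 genes, and 24 of them were at or above 50% in each library.

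These 34 introns were short, with a median length of 250 nt (range 78 to 1313) against 912 nt for all simple introns with 100 reads. The GC content of the 50 exon bases on each side, called flank GC here, had a median of 61.5% in them against 49%. Of the 34, 27 had a flank GC over 55%, a class that holds 33.8% of all simple introns with 100 reads. A transcript annotated as retaining the intron existed for 21 of the 34, and for 43.8% of the 713 introns at or above 10%, against 6.42% of all simple introns with 100 reads. The length was a multiple of 3 in 15 of the 34, against 33.2% of all simple introns with 100 reads.

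The genes behind them covered chromosome segregation, RNA turnover, DNA repair and signalling. Intron 11 of CENPT, an inner kinetochore protein, was retained at 77.7, 62.7 and 86.0%. Intron 17 of PAN2, the catalytic subunit of a poly(A) deadenylase, was retained at 69.5, 65.5 and 75.5%. Intron 8 of NEIL1, a DNA glycosylase of base excision repair, was retained at 63.2, 66.5 and 80.8%. Library 2 was lowest in CENPT and PAN2 but not in NEIL1, and the libraries of each gene all lay above 60%. Intron 18 of OBSL1, a cytoskeletal adaptor, reached 77.5, 62.7 and 82.1%, while the other simple intron of the gene was at 0.727%. Intron 9 of MAPK11, the p38β kinase, was at 55.2, 56.9 and 59.3% against a median of 2.85% for 6 other simple introns of the gene. Intron 10 of F12, coagulation factor XII, gave nearly the same value in each library, 68.4, 66.1 and 67.1%. Further introns at or above 50% were in RHPN1 (74.5%), SLC22A31 (70.6%), FBXL6 (69.4%), FGD1 (67.6%), NRBP2 (67.4%), MIB2 (66.5%), SPATA20 (59.3%) and FBXO41 (55.5%). The values nearest the 50% limit, among simple introns with 100 reads, were 49.3% in BBS10 and 48.3% in CYHR1 below it and 50.1% in CDK11A above it. CDK11A has a near-identical copy in the genome, so its reads may be split between the copies.

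At the other end, some introns were removed almost without exception. The lowest levels were sought only among simple introns with at least 2000 junction reads per library on average. That the genes named here are highly expressed follows from this limit. No retained read was found among 10150 junction reads over the 3 libraries for intron 6 of EIF3E, a translation initiation factor subunit, 7989 reads for intron 4 of PGK1, a glycolytic kinase, 6321 reads for intron 4 of TMBIM6, 6203 reads for intron 11 of XRCC5 (the Ku80 subunit of DNA end joining) and 6044 reads for intron 8 of GPI, glucose-6-phosphate isomerase. A count of 0 allows a level of up to 0.0148% for EIF3E, 0.0188% for PGK1, 0.0237% for TMBIM6, 0.0242% for XRCC5 and 0.0248% for GPI, taken as 3 retained reads over the 3 libraries together and covering counting error only. Intron 4 of XRCC6, the Ku70 partner of XRCC5, had 1 retained read of 14235. Intron 2 of RPS24, a ribosomal protein, had 3 retained reads of 36383 and intron 2 of EEF1G had 3 of 23388. These introns were 93 to 3151 nt long, so short introns were found at both extremes.

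In some genes 1 intron was retained far more than the median of the others. The rule took genes with at least 8 simple introns of 100 reads and set the highest intron against the median of the others. The genes named here were chosen for the largest gaps. Intron 6 of PAXBP1, a partner of PAX transcription factors, was retained at 57.8, 54.4 and 51.7%, while its 9 other introns had medians of 0.224, 0.145 and 0.166%. The highest of those 9 reached 4.67%. Intron 8 of TRABD was at 46.9% ± 4.8 (SD, n = 3) against 2.52% for 7 others, and intron 28 of LAMB2, the laminin β2 chain, at 44.9% ± 8.1 against 2.50% for 20 others, the highest of which was 28.1%. In every library the named intron of these 3 genes lay above all the others, with LAMB2 the closest case. Intron 12 of CLASRP, a serine/arginine-rich protein that binds CLK4, was at 39.7% ± 7.7 against 1.15% for 8 others. Intron 23 of GIGYF1, a protein of translational repression, was at 59.4% ± 5.1 against 6.91% for 7 others, the highest of which was 19.9%. Intron 34 of GTF2I, the last and in the 3′ UTR, was at 51.2% ± 5.0 against 0.0985% for 14 others. GTF2I has closely related pseudogenes, and reads shared with them could not be told apart from its own.

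**Figure D2:**
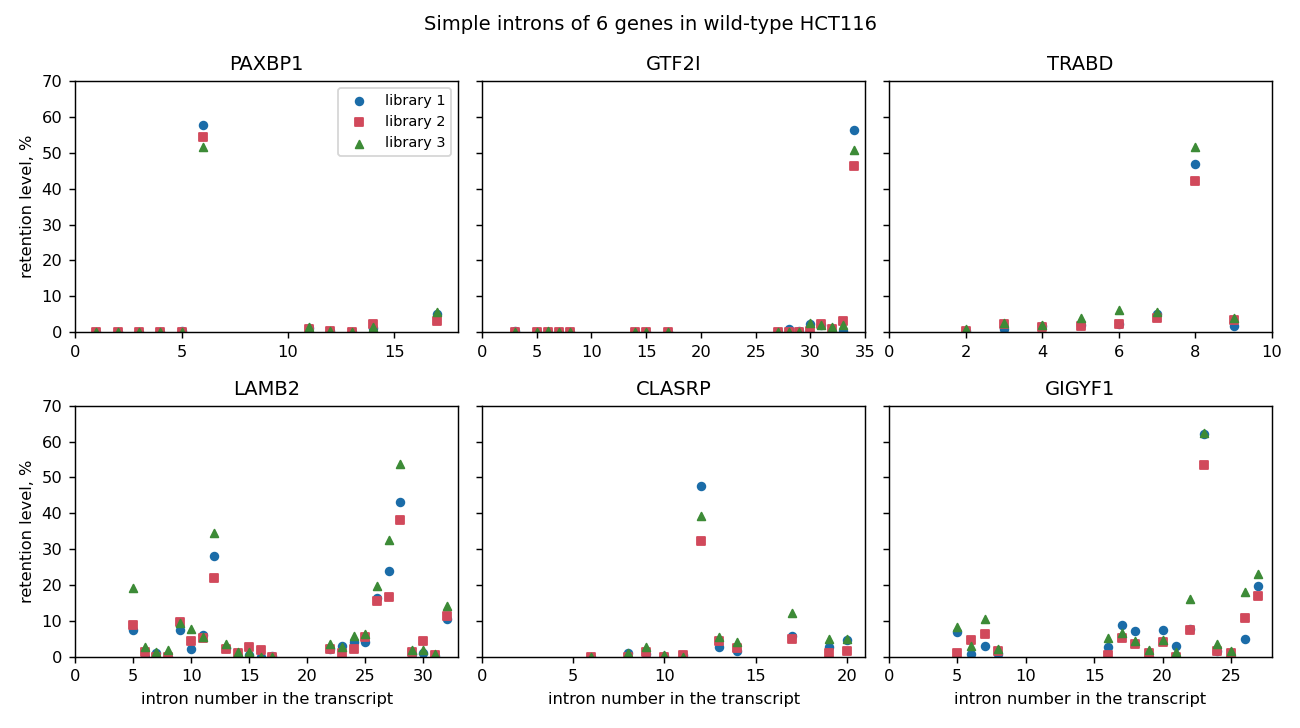
Retention level (y axis, %) of each simple intron along the transcript (x axis, intron number) in PAXBP1, GTF2I, TRABD, LAMB2, CLASRP and GIGYF1, with 1 point for each of the 3 WT libraries. In each gene 1 intron stands above the rest in all 3 libraries, with LAMB2 the closest case. In PAXBP1, intron 6 is at 57.8, 54.4 and 51.7% and no other intron averages above 4.67%.

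Of 3577 genes with at least 5 simple introns, 703 had at least 1 intron at or above 10% (19.7%), and 400 of these had exactly 1. In 213 genes the highest intron was at or above 10% while the median intron of the gene was under 1%. Every intron was under 1% in 554 genes (15.5%). The gene an intron belonged to accounted for 33.4% of the variance of the log2 odds of retention (19907 introns of 2041 genes, 0.5 reads added to each count). The rest lay between introns of a gene and includes counting error, which was not removed.

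Whole genes with high retention were few, and neighbouring introns tended to be high together. In 43 genes the median intron reached 10%. ACADVL, the mitochondrial very-long-chain acyl-CoA dehydrogenase, had a median of 15.3% over 5 simple introns (range 3.92 to 34.6%), with library medians of 15.5, 13.9 and 16.6%. SLC22A31 had a median of 29.9%, KLHL17 of 26.9%, GLT8D1 of 14.7% and SLC29A2, a nucleoside transporter, of 12.8%. The introns of these genes were short, with median lengths from 95 nt in ACADVL to 312.5 nt in SLC29A2. RHPN1 (23.0%), FAHD2A (12.7%) and SYTL1 (11.6%) also reached 10%, with median lengths of 413, 707 and 231 nt. Among 16319 pairs of neighbouring simple introns with 100 reads, the downstream intron was at or above 10% in 34.3% of the 397 pairs whose upstream intron was, with a median of 4.45%. In the other pairs it was in 1.53%, with a median of 0.348%. Neighbours share the transcript's expression and base composition, whose part in this was not tested.

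Short introns were retained more than long ones, and this depended on the GC content around them. The median level of simple introns was 1.01% up to 100 nt, 0.681% above that up to 200 nt, 0.705% up to 500 nt, 0.463% up to 1000 nt, 0.385% up to 2000 nt, 0.375% up to 5000 nt, 0.357% up to 10000 nt, 0.246% up to 50000 nt and 0.143% in the 84 longer ones. The share at or above 10% was 8.69% up to 100 nt and 0.397% between 10000 and 50000 nt. The median number of junction reads was 156 in the shortest class and 82.7 between 10000 and 50000 nt. Introns up to 200 nt had library medians of 0.707, 0.546 and 0.954%, against 0% in each library for introns over 10 kb, a mean difference of 0.736 percentage points ± 0.21 (SD, n = 3). Over introns with no annotated exon inside, that difference was 1.00 ± 0.25. No exact test over 3 libraries can reach a p of 0.05, so differences are given with their spread.

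Where the exons were poor in GC, median levels differed little with length, while the share of introns at or above 10% was lower in longer ones. With a flank GC up to 45%, the median level was 0.274% for introns up to 200 nt, 0.285% from there to 1000 nt, 0.288% to 5000 nt and 0.241% above. The share at or above 10% in these classes was 2.49, 1.86, 1.07 and 0.469%. With a flank GC over 55%, the same classes had medians of 1.24, 1.06, 0.719 and 0.449%, and 10.3, 9.84, 4.25 and 1.17% of their introns were at or above 10%. For the medians of introns with 100 reads, the shortest class had 0.226% and the longest 0.167% at low GC, against 0.940 and 0.3003% at high GC, and at low GC 1.79 and 0.168% of them were at or above 10%. Flank GC itself went with retention in every length class. Over all lengths the median was 0.940% above 55% GC, 0.421% at 45 to 55% and 0.280% up to 45%, and the 3 libraries gave 0.816, 0.637 and 1.12% at high GC against 0.0417, 0 and 0.149% at low GC.

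The median level was higher toward the 3′ end of the transcript. The median of last introns was 0.993%, with library medians of 0.901, 0.739 and 1.09%, against 0.433% for internal introns, with 0.285, 0.175 and 0.432%. The difference was 0.611 percentage points ± 0.046 (SD, n = 3) over simple introns and 0.769 ± 0.055 over introns with no annotated exon inside. In transcripts with at least 8 introns, the median was 0.307% where at least 6 further introns followed, 0.513% where 5 did, 0.637% for 4, 0.671% for 3, 0.815% for 2, 0.854% for 1 and 1.06% for the last. The share at or above 10% did not follow this order: it was 4.77, 5.29, 4.76, 5.70, 4.99 and 4.90% from 5 introns before the end to the last, and 3.22% further upstream. First introns had a median of 0.516% and the higher share at or above 10%, 6.16%, against 5.21% for last and 3.96% for internal introns. Median levels of last introns were above those of internal ones in every class of length (1.51 against 0.760% up to 200 nt, 0.768 against 0.279% over 5000 nt) and of flank GC (0.757 against 0.254% up to 45%, 1.53 against 0.940% over 55%). Libraries made from polyadenylated RNA can hold more reads near the 3′ end, and the median number of junction reads was 130 for last introns against 104 where at least 6 introns followed. The part of such coverage was not tested.

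**Figure D3:**
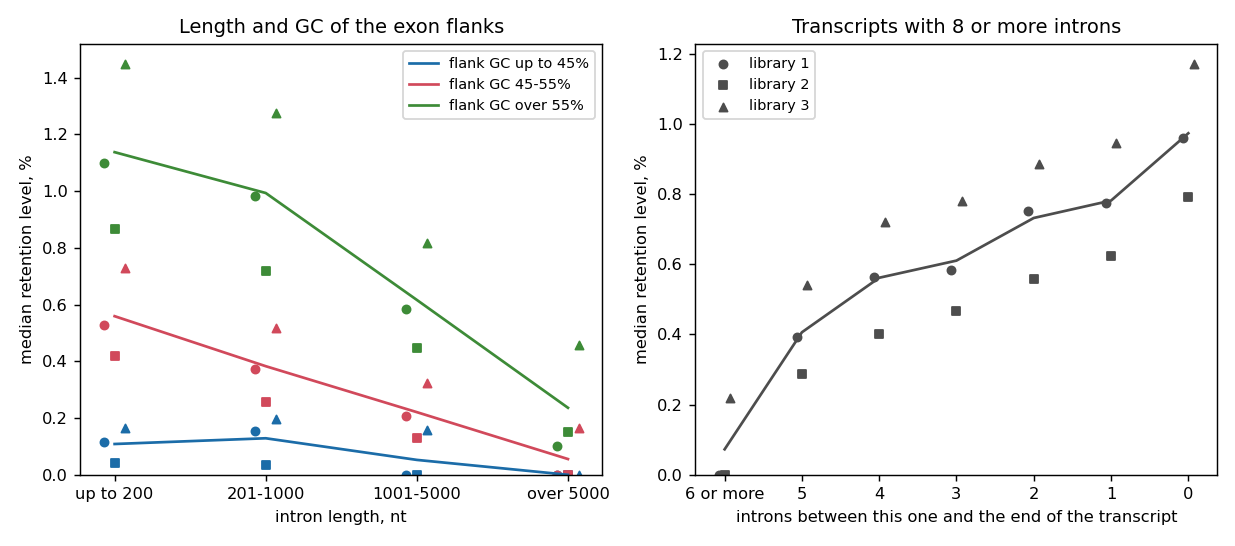
Median retention level of simple introns (y axes, %): on the left by intron length (x axis, nt) in 3 classes of flank GC, on the right by the number of introns between the intron and the end of the transcript (x axis), in transcripts with at least 8 introns. Points are the 3 WT libraries (circle library 1, square library 2, triangle library 3) and lines their mean. The line for flank GC over 55% is lower at greater lengths while that for GC up to 45% stays near 0.1% or below, and levels are highest at the last intron, where the libraries are at 0.959, 0.792 and 1.17%.

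Levels also differed by where in the gene the intron lay and by the kind of gene. Introns within coding sequence had a median of 0.463% (44750 introns), those in 5′ UTRs 0.703% (392) and those in 3′ UTRs 1.58% (136). The 429 simple introns of transcripts without a coding sequence had 3.11%, and 28.9% of them were at or above 10%. Long noncoding RNA genes had a median of 4.89% over 85 introns and pseudogenes 2.78% over 311, against 0.466% in protein-coding genes. Their introns also had fewer junction reads, with medians of 42.3 and 52.3 against 120. The part of depth in these levels was not tested. Intron 4 of GAS5, a noncoding RNA that hosts small nucleolar RNAs in its introns, was at 20.7, 20.3 and 20.4%, and intron 7 of SNHG1, another such host, at 20.8, 19.8 and 17.5%. These introns averaged 2755 and 1547 junction reads per library and varied little between libraries. Simple introns hold no annotated exon except those of intron-retaining transcripts, so no annotated small nucleolar RNA lies inside one. Host genes of small nucleolar RNAs had a median of 0.529% over simple introns and 12.2% over all listed introns. Short coding introns whose length is a multiple of 3, up to 500 nt, had a median of 0.709% against 0.758% for other lengths.

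Introns of weakly expressed genes had higher levels, though not by the median of every library. When genes were classed by the median number of spliced reads across their other introns, the median level was 1.04% under 50 reads, 0.575% at 50 to 100, 0.398% at 100 to 300, 0.260% at 300 to 1000 and 0.186% at 1000 and over. The medians of libraries 1 and 3 followed this order (0.826 to 0.181% and 1.23 to 0.210%). Library 2 did not, with medians of 0, 0, 0.279, 0.183 and 0.140%. The order of the GC classes was the same within each range of reads: under 100 reads, 1.36% over 55% GC and 0.402% up to 45%, and at 300 reads and over, 0.424 and 0.154%. Last introns likewise stayed above internal ones, at 1.52 against 0.645% under 100 reads and 0.501 against 0.222% at 300 and over. Every listed intron had at least 20 junction reads per library, retained and spliced together. In weakly expressed genes, an intron with retained reads reaches that number more easily. The part of this in the higher levels was not tested.

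The chromosomes differed in their median level, and also in intron length and flank GC. Chromosome 16 had the highest median of simple introns, 0.761% (libraries 0.661, 0.485 and 0.876%), followed by chromosomes 19 (0.700%), 22 (0.668%), 17 (0.629%) and 11 (0.595%). The lowest were chromosomes 18 (0.267%), X (0.316%), 13 (0.329%) and 14 (0.341%). Chromosome 19 stood above all others together by 0.288 percentage points ± 0.095 (SD, n = 3) over simple introns and 0.305 ± 0.11 over introns with no annotated exon inside. Its simple introns had a median length of 456 nt and a flank GC of 60%, against 1825 nt and 42% on chromosome 18.

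Each intron was then ranked among all simple introns of its own class of length and flank GC, so that a chromosome with no difference of its own would average the 50th percentile. Chromosome 19 then had a mean percentile of 48.1, 47.9 and 48.8 in the 3 libraries, and chromosome 16 stayed above 50 with 52.4, 52.1 and 52.5. Chromosome X was lowest with 44.7, 43.3 and 44.2, followed by chromosome 21 with 46.2, 46.6 and 45.6. The SD over libraries was below 1 percentile on each of these chromosomes, and the place of X at the bottom held in every library. The median number of junction reads per simple intron was 106 on X and 120 on chromosome 16. Of the 34 introns at or above 50% with spliced reads in each library, 5 lay on chromosome 16, which holds 4.34% of the simple introns with 100 reads, among them those of CENPT, SLC22A31, TAF1C and SPSB3.

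**Figure D4:**
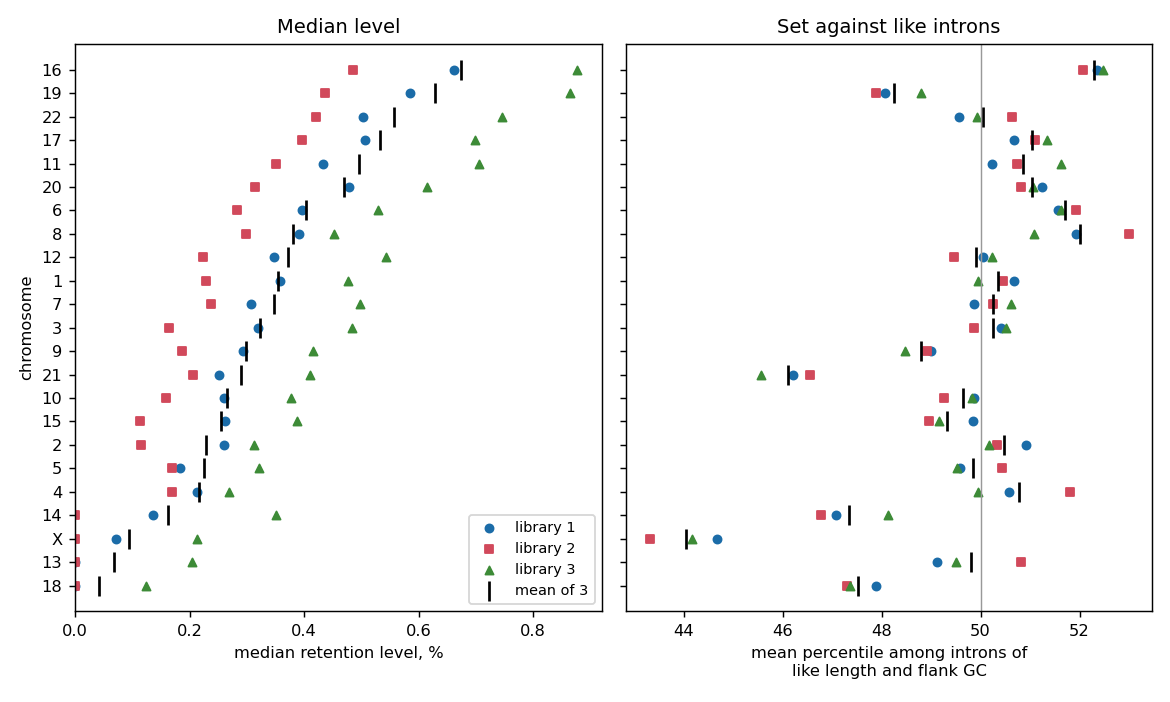
Simple introns by chromosome (y axis) in the 3 WT libraries: median retention level (left x axis, %) and mean percentile of the introns among simple introns of like length and flank GC (right x axis), with the mean of the 3 libraries as a bar and the 50th percentile as a line. Chromosomes 16 and 19 lead on the left, but on the right only chromosome 16 of the pair stays above 50, and X is lowest at 44.7, 43.3 and 44.2.

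Grouped by function, simple introns of genes for translation, protein folding and energy supply were removed most completely. The lists cover 37 pathways and complexes, and the median of 27 of them lay below that of all simple introns, 0.469%. Genes of the signal peptidase and oligosaccharyltransferase had a median of 0.0650% over 56 introns, none of which reached 10%. Large and small ribosomal subunit proteins had 0.150% (60 introns) and 0.189% (49), translation factors 0.151% (220), chaperonin and prefoldin 0.162% (86), oxidative phosphorylation 0.176% and glycolysis 0.181%. Across these 7 lists 2 introns reached 10%, against 4.08% of all simple introns. Reads were many in these genes, with a median of 7538 per intron for large ribosomal subunit proteins against 119 for all simple introns, and the part of expression in the low levels was not tested. The low levels of the ribosomal proteins hold for simple introns only. Over all listed introns of their genes, the median was 2.47% for the large subunit (413 introns) and 3.32% for the small one (285), above the 1.09% of all listed introns, and 45.8 and 46.3% were at or above 10%. With no annotated exon inside, the medians were 0.270 and 0.302%, but 22.6 and 21.4% were at or above 50%, against 2.1% of all such introns. For the other lists named, medians over all listed introns were 0.291 to 0.656%, below 1.09%. Their shares at or above 50% were 19.8% for translation factors, 19.03% for chaperonin and prefoldin and 16.4% for oxidative phosphorylation. Signal peptidase and oligosaccharyltransferase genes had 18.1% and glycolysis 10.9%, against 12.7% of all listed introns. Without an exon inside, these shares were 2.93% (translation factors) to 5.23% (chaperonin and prefoldin), against 2.1%. Over all listed introns, 22 of the 37 lists lay below the common median. RPS25 and MRPS34, of the small cytosolic and the mitochondrial ribosome, held introns of 6.36% and 7.44%. Of the 49 simple introns of small ribosomal subunit genes, 1 was at or above 50%.

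Splicing factors themselves fell on both sides. Major spliceosome proteins had a median of 0.205% over 262 simple introns, hnRNP proteins 0.207% over 75 and SR proteins 0.210% over 39, with none at or above 10% in the 3 lists. Genes of SR proteins are known to carry poison exons inside conserved introns, and such introns are outside the simple class: over all 210 listed introns of the SR genes the median was 6.84%. The CLK and SR protein kinases, which phosphorylate SR proteins, had the highest median of all lists over simple introns, 2.51% over 25 introns of 6 genes, with library medians of 2.78, 1.88 and 3.03%. Over all listed introns their median was 1.98%, below that of snoRNA host genes (12.2%), SR proteins (6.84%), ribosomal proteins, p53 targets (2.69%) and RBM and LUC7-like proteins (2.13%). Their highest simple introns with 100 reads were 7.39% in CLK2, 6.12% in SRPK1 and 4.54% in CLK1. The last intron of DDX5, an RNA helicase, was at 23.1, 22.9 and 20.9% with 4332 reads on average, and intron 6 of CCDC84, a protein of the minor spliceosome list, at 13.4, 15.9 and 17.4%. The minor spliceosome list as a whole had a median of 0.448% over 60 introns, near that of all simple introns.

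Higher medians were also found for p53 targets (1.59%, 53 introns), autophagy genes (0.821%, 135), cyclins and CDKs (0.809%, 157), RAS and MAPK signalling (0.675%, 136), the WNT pathway (0.662%, 106) and histone methyltransferases and demethylases (0.610%, 391). HCT116 carries wild-type p53. The p53 targets FDXR, a mitochondrial reductase, and AEN, a nuclease, held introns of 12.5% and 10.2%. Among autophagy genes, intron 14 of ATG16L1 was at 26.9, 21.9 and 22.3%, and 7.41% of the introns of the list reached 10%. Among cyclins and kinases, intron 8 of CDK10 was at 49.8, 45.4 and 59.8% and intron 4 of CCNL1, cyclin L1, at 18.6, 19.1 and 14.4%. Intron 5 of DVL3, a WNT transducer, was at 21.7, 13.4 and 24.2%.

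**Figure D5:**
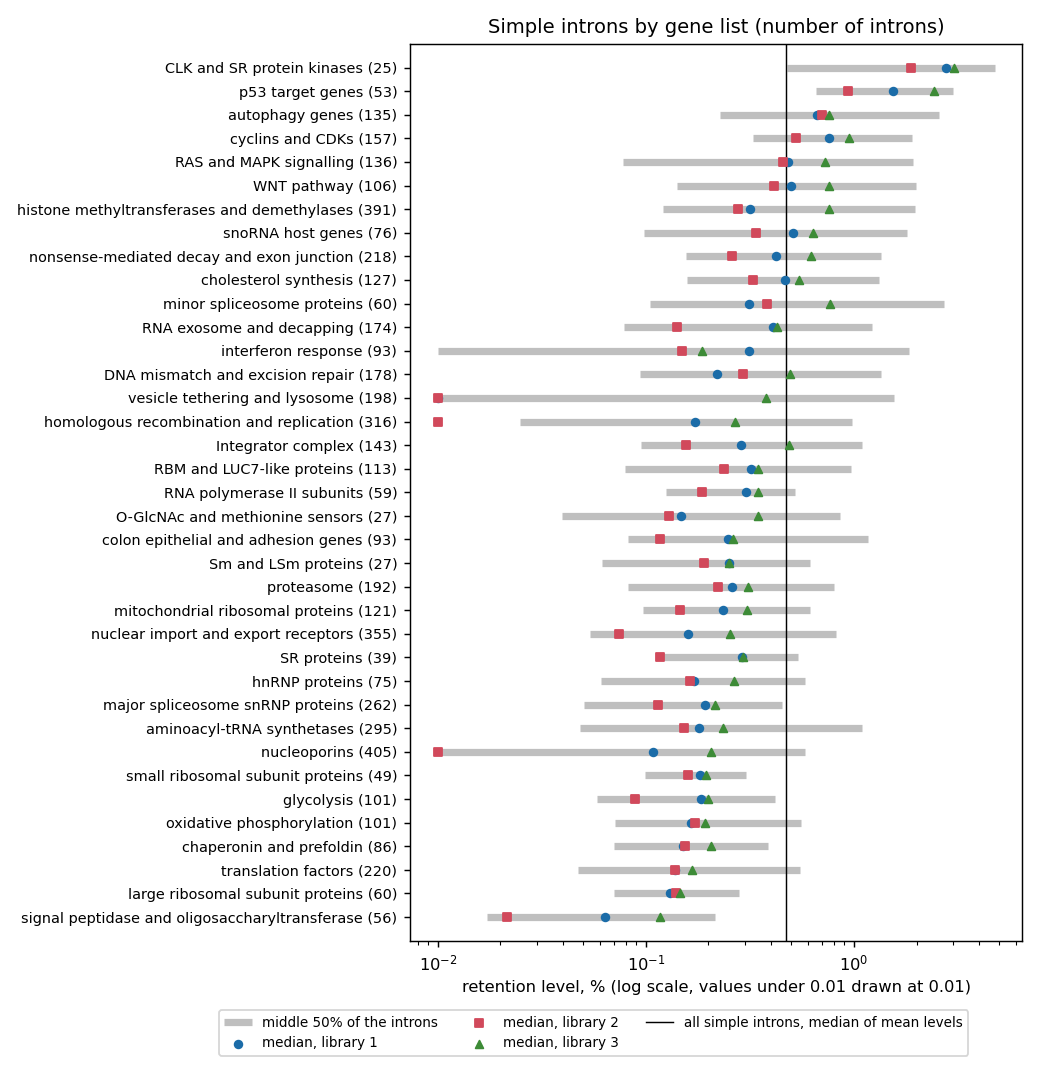
Retention level of simple introns (x axis, %, log scale) in 37 gene lists (y axis, number of introns in brackets): coloured points are the medians of the 3 WT libraries, grey bars the middle 50% of the introns by mean level, and the black line the median of all simple introns, 0.469%. CLK and SR protein kinases and p53 targets lie to the right of the line in each library, ribosomal proteins and translation factors to its left.

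Single introns of high level were found in lists with medians below or near that of all simple introns. Intron 1 of RARS2, the mitochondrial arginyl-tRNA synthetase, is 20331 nt long and was retained at 27.2, 28.6 and 25.5%, the highest level among simple introns over 10 kb with 100 reads. Intron 12 of NARS, the asparaginyl-tRNA synthetase, was at 17.04, 19.5 and 17.7%. Intron 34 of ZFC3H1, a factor of nuclear RNA surveillance, was at 32.2, 28.6 and 29.2%, and intron 15 of RECQL5, a DNA helicase, at 35.8, 36.9 and 40.9%. In the mRNA decay genes SMG5 and SMG9, introns reached 16.4% and 16.1%, and in SREBF1 and LSS, of cholesterol synthesis, 14.8% and 13.4%.

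The 3 genes named next are known for regulated retention and were looked at beyond the simple introns, because their introns overlap annotated exons. They were chosen after the values were seen. OGT, the O-GlcNAc transferase, retains an intron that is removed when O-GlcNAc is low, and intron 4 of its 21, chrX:71544636-71547906, was at 62.7, 61.2 and 58.8%, against a median of 0.153% for 19 other introns. Among these, an intron numbered 1 stood at 82.6%. MAT2A makes S-adenosylmethionine, and its last intron, whose splicing responds to methionine supply, was at 38.7, 41.3 and 45.7%, against a median of 5.45% for 7 others. CLK1 holds a pool of nuclear RNA that keeps introns 3 and 4, which were at 51.3, 54.2 and 51.8% and at 57.7, 46.995 and 51.0%, against a median of 3.44% for 10 others, none above 7.43%. In MAT2A the intron before the last was the next highest, at 12.8%. Each of these 4 introns has an annotated exon inside, so a part of its boundary reads can come from transcripts that use that exon.

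Sequence at the splice sites could be read for 4691 simple introns (9.92%). Their first 12 bases lie in an exon of a transcript annotated as retaining an intron, the only kind of exon simple introns can hold. This set was retained more than the rest, with a median of 1.89% against 0.409%, so values of this set are set against introns outside it only where that is stated. Introns that begin with GTAAGT had a median of 1.08% (528 introns), against 2.07% for GTGAGT (675), 2.88% for GTGAGC (248) and 3.50% for GTGAGG (307). The 43 introns that begin with GC had 3.79%. With G as the third base the median was 2.72%, against 1.36% with A. The difference was smaller within classes of GC: up to 45% flank GC, G gave 0.877% and A 0.813%, and above 55% G gave 3.76% and A 3.09%. By the share of C and T ahead of the acceptor, the median was 2.20% for introns up to 60% pyrimidine, 2.13, 2.07 and 2.11% in the next 3 classes, and 1.55% for the 315 introns over 90%.

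Introns of the U12 type were retained more than the other introns of their genes. They were taken as those whose first 8 bases are GTATCCTT or ATATCCTT on the strand of the gene, which held for 29 of the 4691 introns (0.618%), in 29 genes. To compare the ends of such introns, the sequences of the highest short ones and of 6 with both a donor and a branch match are shown, at 100 reads or more. The donor match is in capitals, and so is CCTTAAC or CCTTGAC, a core of the U12 branch site, where it was found in the last 40 bases. The first 2 are whole introns, and the others give the first 12 and the last 40 bases. All are hg38 sequence of GENCODE transcripts, and a match is a description, not a site shown to be used.
TAF1C intron 7, chr16:84182059-84182201, minus strand: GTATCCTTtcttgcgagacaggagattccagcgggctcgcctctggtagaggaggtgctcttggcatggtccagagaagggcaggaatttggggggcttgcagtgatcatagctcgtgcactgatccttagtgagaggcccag
EDC4 intron 22, chr16:67881846-67881953, plus strand: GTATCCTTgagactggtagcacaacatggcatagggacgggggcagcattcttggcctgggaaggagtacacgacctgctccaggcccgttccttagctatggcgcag
SMYD2 intron 9, chr1:214331071-214332017, plus strand, start: ATATCCTTtaca
SMYD2 intron 9, end: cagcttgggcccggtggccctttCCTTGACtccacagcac
SLC25A30 intron 9, chr13:45396016-45397257, minus strand, start: GTATCCTTttct
SLC25A30 intron 9, end: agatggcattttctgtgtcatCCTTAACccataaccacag
WDFY1 intron 5, chr2:223899071-223901182, minus strand, start: GTATCCTTcaga
WDFY1 intron 5, end: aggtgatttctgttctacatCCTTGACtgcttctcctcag
VAC14 intron 16, chr16:70695624-70697138, minus strand, start: GTATCCTTcctc
VAC14 intron 16, end: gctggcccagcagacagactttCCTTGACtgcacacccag
SELENOM intron 5, chr22:31105287-31105657, minus strand, start: GTATCCTTctgt
SELENOM intron 5, end: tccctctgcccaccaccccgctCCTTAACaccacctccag
GARS intron 11, chr7:30621501-30622316, plus strand, start: ATATCCTTtctg
GARS intron 11, end: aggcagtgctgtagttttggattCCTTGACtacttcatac

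The median of the 29 U12-type introns was 5.69%, against 1.87% for the 4662 other introns read and 0.402% for the 242 other simple introns of the same genes, most of which lie outside the set that was read. Library medians were 3.77, 1.90 and 3.87% for the U12-type introns, against 1.80, 1.43 and 2.20% for the other introns read, so the difference was smallest in library 2. With only those of the 242 whose ends could be read, 40 introns, the median was 1.19%. In 20 of the genes at least 3 other simple introns were listed, and the U12-type intron lay above their median in 18, again counting others that were not read. With flank GC up to 55%, 20 U12-type introns had 2.64% and 2556 others 1.08%. The range was wide. Intron 22 of EDC4, a scaffold of mRNA decapping, was at 20.8, 18.1 and 25.9%, against 0.878% for 17 other introns. Intron 9 of SMYD2, a lysine methyltransferase, was at 19.2, 16.3 and 11.1%. TAF1C intron 7 was at 27.8, 22.3 and 33.3%, in the same gene whose intron 10 is printed above. SELENOM and GARS also hold both matches but stood at 1.09% and 0.535%, and MYH10 was lowest at 0.306%. The branch core was found in 8 of 17 U12-type introns whose last 40 bases were read and in 31 of 2832 others (1.09%), by exact match on the strand of the gene.

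The libraries agreed closely, with a small shift of whole libraries. Over 7684 simple introns with at least 5 retained and 5 spliced reads in each library, the Pearson correlation of the log2 odds of retention was between 0.944 and 0.947 for the 3 pairs of libraries, across introns that share the same transcripts and are not independent. Library 3 was highest for 54.1% of these introns and library 2 lowest for 56.6%. Against the mean of the 3, the median log2 odds was +0.22 in library 3, +0.02 in library 1 and -0.24 in library 2. The shift of library 3 was +0.27 at flank GC over 55% and +0.12 up to 45%. Library 2 was also the deepest, with 37244375 junction reads over the listed introns against 31841148 in library 1 and 31453828 in library 3.

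The spread between libraries was above that of counting where reads were enough to measure it. At the median intron, which has few retained reads, the 2 could not be set apart or called equal. The median SD over the 3 libraries was 0.387 percentage points for simple introns, beside a median counting SD of 0.395, and 0.599 beside 0.601 over all listed introns. An SD from 3 values more often falls below the SD it estimates than above it. These near-equal medians therefore do not show a spread of counting size. Where at least 5 reads of each form were expected, the variance averaged 2.21 times that of counting, with a median of 1.51 (9557 introns). Counting alone would give this ratio an average near 1 and a median below 1. Between 10 and 50%, this ratio was 1.91 under 100 reads and 3.09 at 100 to 1000 reads, so the ratio was above 1 in both and higher in the deeper introns. The largest SD among simple introns with 100 reads was in intron 38 of MROH1, at 30.6, 30.3 and 65.2%. Intron 7 of PLCG1, a phospholipase, gave 25.6, 27.0 and 47.8%, and intron 2 of ATAD3B 23.1, 22.4 and 44.0%. In each of these 3 the first 2 libraries were close and library 3 stood apart, whereas in NOXA1 intron 10, at 80.4, 61.7 and 85.2%, library 2 was the low one.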

How the data were processed

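The authors deposited 1 table per clone against WT, with an intron per line and the 3 libraries of a group as a list in each cell. Per the file headers, the values are junction-read counts for the retained and the spliced form, effective lengths, and inclusion levels as fractions. The tools listed in the submitters' processing notes are cutadapt 2.0 and STAR 2.7.1a, with genome build hg38. The counting tool, its use of strand and its filter were not named there. The clone columns, 3 kinds of per-sample columns per table, were not used.

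Levels were recomputed from the deposited counts and lengths with Python 3.11.15, pandas 2.3.3 and NumPy 2.4.6. Introns were matched to GENCODE release 29, which held 99.64%, with the deposited start counted from 0; starts are printed counted from 1. Exon sequence and intron sequence came from its transcripts. The members and gene lists were chosen with earlier results of these data known. Named introns were the highest, the lowest, the highest 3 per gene list, the most variable, those farthest above their gene, the highest short and long, and the highest long noncoding, with at least 100 reads and 1 per gene. For the lowest introns the minimum was 2000 reads. The rule was planned for introns with no annotated exon inside. There, only 2 of the 15 highest were simple and none had more than 2 spliced reads in a library, so the rule was repeated on simple introns. Introns left out of the text by name or sequence remain in the counts and are not reported here. No test between groups was made. Level and dispersion estimates were checked on simulated binomial counts. Alternatives changed the read minimum, the tables, the level's definition, the unit counted and the libraries.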

Additional observations from a re-analysis of the deposited data

How the results depend on the processing

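The last-intron and chromosome 19 differences stayed above 0 in 22 of 22 recalculations. The sign of the length difference says little, because the library medians of introns over 10 kb are 0. Of 77 recalculated values other than list counts, 38 moved by less than 1 SD over libraries (for the median SD, over its values without 1 library). The 22 and the 77 both include the setting without the read minimum, whose values could not move. For the median level of all introns (1.06% as the mean of library medians), 100 reads gave 0.700, a plain share of reads 2.06, 1 value per gene 1.49, introns with no exon inside 0.495 and simple introns 0.356%. For the share at or above 50% (12.7%), these gave 10.1, 14.3, 12.1, 2.10 and 0.417%, and introns listed by all 4 clones' tables were at 11.6%. For the share under 1% (48.4%) they gave 56.2, 37.0, 41.7, 60.7 and 65.8%. The length difference (1.00) was 0.665 with 100 reads, 1.80 as a plain share, 1.25 over all introns and 0.736 over simple ones. The last-intron difference (0.769) was 0.438 with 100 reads, 0.447 in all 4 tables, 1.51 as a plain share, 0.611 per gene, 2.37 over all and 0.611 over simple introns. The chromosome 19 difference (0.305) was 0.173 with 100 reads, 0.129 in all 4 tables, 0.558 as a plain share and 0.721 over all introns. The median SD (0.599) was 0.345 with 100 reads, 0.655 in all 4 tables, 1.04 as a plain share, 0.740 per gene, 0.440 with no exon inside and 0.387 over simple introns. Leaving out 1 library gave 0.955 to 1.17% for the median, 12.6 to 12.8% and 46.9 to 50.4% for the shares, 0.874 to 1.12, 0.741 to 0.796 and 0.241 to 0.348 for the differences, and 0.382 to 0.440 for the SD, which then rests on 2 libraries. Of the gene lists, 27 lay below the median of introns with no exon inside, 23 with 100 reads, 27 over simple introns and 24 to 26 without 1 library. The cause of these shifts was not tested. The deposited levels gave the same values within the spread, and the minimum of 20 reads removed nothing, since no listed intron had fewer. The setting with simple introns was chosen after seeing the data. No paired analysis was possible because the lists carry no replicate numbers and only 1 group was described; each class difference was taken within a library.

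Depth limits single introns: at the median of 119 reads, levels under about 1% rest on a few retained reads. Introns are listed partly by the clones' reads, and the list leaves out introns with fewer than 20 reads.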
